A study of Homo sapiens with 6 samples.

Results

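The expression of 33 genes of the hypoxia response and of glycolysis was compared between G3C2 and wild-type (WT) cells of U2OS, a human osteosarcoma line. The genes were HIF1A, 15 glycolytic enzymes and 17 other reported targets of HIF, the hypoxia-inducible factor. They were taken by symbol from GENCODE 29, and all 33 were among the 56982 gene identifiers listed in both deposited expression tables. G3C2 is 1 clone made by CRISPR/Cas9 targeting of ZFP36L1, which the submitters describe as deficient in that gene, and the WT cells are the line labelled as wild type. Since a single clone was sampled, a difference due to the edit and one due to the choice of clone cannot be told apart. There were 3 poly(A) RNA libraries of G3C2 and 3 of WT, carrying the replicate labels 1, b and c, and both groups were harvested in log phase at 65 to 75% confluency. No low-oxygen treatment is named in the labels, and both groups were grown in DMEM with serum.

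HIF is a pair of proteins, an oxygen-regulated alpha subunit such as the product of HIF1A and a stable partner, ARNT. When oxygen is available, prolyl hydroxylases such as EGLN1 and EGLN3 modify the alpha subunit, which is then bound by VHL, ubiquitinated and degraded, so HIF1A activity is set mostly at the level of the protein. When oxygen is scarce, the complex binds a short DNA core and raises transcription of glucose transporters, most glycolytic enzymes, PDK1, carbonic anhydrases and the hydroxylases that limit it. Many tumour lines also run glycolysis strongly in ample oxygen. ZFP36L1 is an RNA-binding protein of the TTP family, which recognises AU-rich elements, mostly near the 3′ end of an mRNA, and promotes decay of the mRNA it binds.

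Short sequences of 2 kinds bear on these genes, and those shown belong to genes whose expression is described afterwards. The first kind is the core of the HIF binding element in the promoter, searched as ACGTG or GCGTG on both strands in windows reaching 250 bases before to 50 bases after each annotated start (RefSeq, GRCh38.p14). The core is in capitals, with 10 bases on each side. The sites shown are examples. They come from SLC2A1, ENO2, PFKFB4 and PDK1, members with an unadjusted limma p under 0.05, from CA9, and from LDHA and PGK1, abundant glycolytic enzymes. Matches of other members, HIF1A among them, are not shown.
SLC2A1, chr1:42958829-42958853, minus strand: gcaacagcgaGCGTGccggtcgcta
ENO2, chr12:6914452-6914476, plus strand: ccgcgctcgtACGTGcgcctccgcc
LDHA, chr11:18394467-18394491, plus strand: cccgactcacACGTGggttcccgca
PGK1, chrX:78104036-78104060, plus strand: ggcgtgccggACGTGacaaacggaa
PFKFB4, chr3:48556955-48556979, minus strand: agttgggcatGCGTGgtcggaggcc
PDK1, chr2:172556072-172556096, minus strand: gccgagtggtACGTGagggacgtgg
CA9, chr9:35673900-35673924, minus strand: tacgggctgtACGTGcattggaaac

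Windows were matched for 30 of the 33 genes. A core in either form lay in at least 1 window of 28 of the 30 (93.3%), against 70.7% of the 10045 tested genes with a window, and ACGTG lay in 18 of them (60%), against 32.6%. The members' windows also had more G and C, with a median of 68.3% against 64.7%. This count favours genes with several windows, and glycolytic enzymes had 35 windows for 15 genes against 18 for 14 other targets. By window, a core lay in 60% of the glycolytic windows and 88.9% of those of the other targets, against 60.7% of the windows of tested genes. EGLN3 and PGAM1 had no match in their windows. A match is a description of the letters and does not show binding in these cells.

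The second kind is TATTTAT, a core of the AU-rich element, searched in the sense strand of the longest annotated 3′ untranslated region (GENCODE 29, GRCh38). The core is in capitals, with up to 10 bases on each side, and the sites are those of HIF1A and of members with an unadjusted p under 0.05, with SLC2A3 as the other glucose transporter.
HIF1A, chr14:61747135-61747161, plus strand: taaagcagtcTATTTATattttctaca
ENO2, chr12:6923279-6923305, plus strand: ggctttagtgTATTTATttatttattt
SLC2A1, chr1:42926275-42926301, minus strand: agatgcaagaTATTTATatatattttt
PDK1, chr2:172596049-172596075, plus strand: ccaagtacttTATTTATcgttttcaca
SLC2A3, chr12:7920928-7920954, minus strand: acttgagtttTATTTATtttatcctct

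This core lay in 14 of the 33 members (42.4%), against 35.9% of 12104 tested genes, with median region lengths of 1144 and 1386.5 bases. It lay in 5 of 15 glycolytic enzymes (33.3%) and 8 of 17 other targets (47.1%), whose median region lengths were 696 and 2063 bases. ENO2 held 4 overlapping matches, HIF1A 3, SLC2A3 2, and SLC2A1 and PDK1 1 each, while PFKFB4 and EGLN3 held 0. These matches were not tested against the expression values, and no binding was measured.

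Values are FPKM, fragments per kilobase of transcript scaled to library size, in a first table with the replicate 1 libraries and a second table with replicates b and c. The tables have separate scales. Summed FPKM was 712633 in G3C2 and 705014 in WT in the first table, and 258735 and 319282 in G3C2 and 264495 and 235190 in WT in the second. Each difference was therefore taken within a table. Recovered read totals of the second table were 26.1 M and 25.8 M in G3C2 and 29 M and 22.6 M in WT, and the depth of the first was not recovered. The divisors behind the deposited FPKM were 26.5 M and 22.6 M in G3C2 and 29.7 M and 25.4 M in WT. They were between 99.7% and 99.9% of median-of-ratios library sizes computed from the recovered reads, but in replicate c they were 87.3% of the library's own reads in G3C2 and 112% in WT. Scaling the second table to its own read totals, an alternative chosen after the data were seen, therefore lowers the differences of pair c, and the median over all genes in that pair was −0.16 with this scaling and 0.07 as deposited. Values that turn on it are given with both scalings. Of the osteoblast-lineage markers, RUNX2, COL1A1 and SPARC were at or above 1 FPKM in every library, while SP7, COL1A2, ALPL, BGLAP and IBSP were below 1 in all, IBSP at 0. Of 4 epithelial markers EPCAM alone was at or above 1 FPKM in every library, and 4 haematopoietic markers were below 1 in all. ZFP36L1 itself had 238, 105 and 82.4 FPKM in G3C2 replicates 1, b and c, against 165, 57.1 and 128 FPKM in WT. Where in the gene the edit lies is not given, so these values are no test of the label.

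The main test was limma on log2(FPKM + 1) with terms for genotype and table, over 15001 genes with at least 1 FPKM in at least 2 libraries, and 32 of the 33 members entered it. On this scale the change of genes with low values is understated. No member passed a Benjamini-Hochberg adjusted p of 0.05 in either direction, and over all genes tested 3 were higher (0.02%) and 4 lower (0.0267%). With the replicate label as a block the counts over all genes were 0 and 1, and without replicate c they were 448 and 457. Members' adjusted limma p ran between 0.165 and 0.999 and their log2 fold changes between −0.67 and 0.87. By unadjusted limma p under 0.05, 2 members lay higher, SLC2A1 and ENO2, and 3 lower, PFKFB4, EGLN3 and PDK1. These 5 are 15.6% of the members tested, against 13.6% of all genes tested (6.19% higher and 7.43% lower). The 2 groups did not overlap within either table for 9 members, or 28.1%, against 29.7% of all genes (14.9% higher and 14.8% lower). With read-total scaling 8 members (25%) did not overlap, against 31.4% of all genes (1481 genes higher and 3226 lower). Of these members 2 were higher (PKM and SLC2A1) and 6 lower (PFKL, EGLN1, CA12, PFKFB4, EGLN3 and PDK1). With quantile normalization 4 members (12.5%) did not overlap, all lower, against 29.6% of all genes (2292 higher and 2153 lower). As deposited, the shares by unadjusted p and by non-overlap were near the background. The values below describe genes whose differences did not pass the adjusted test.

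**Figure D1:**
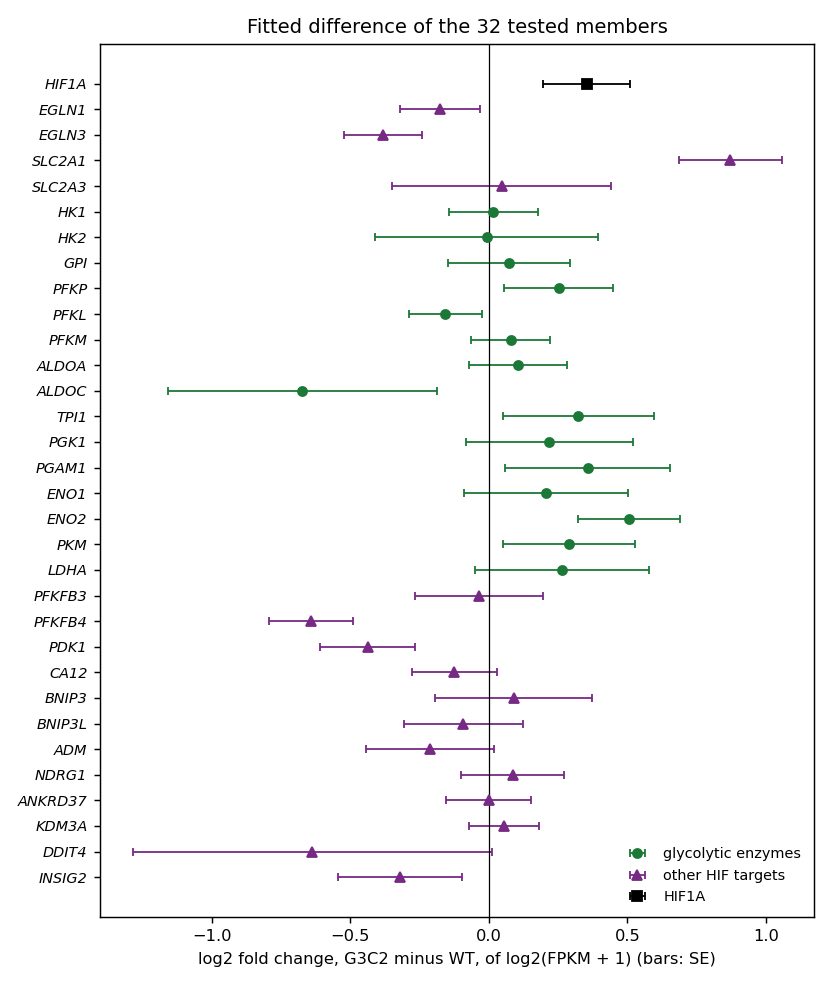
Fitted log2 fold change, G3C2 minus WT, of log2(FPKM + 1) for the 32 tested members, ordered by role, with bars of 1 standard error. SLC2A1 lies farthest to the right at 0.87, and ALDOC and DDIT4, at −0.67 and −0.64, have among the widest bars. With quantile normalization the signs of 10 members turn round, 8 of them glycolytic enzymes.

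HIF1A (ENSG00000100644, chr14:61695513-61748259, plus strand), the oxygen-regulated subunit, had 179, 93.0 and 86.0 FPKM in G3C2 replicates 1, b and c, against 131, 72.3 and 71.8 FPKM in WT. Each G3C2 library lay above the WT libraries of its table as deposited, by 1.36-fold, 1.29-fold and 1.20-fold by label. The log2 fold change was 0.35 ± 0.16 (SE), with a 95% interval of −0.03 to 0.73 and an adjusted limma p of 0.398. In replicate pair c the sign depended on scaling, at 0.26 as deposited, −0.10 with read-total scaling and −0.37 with quantile normalization, and under both the groups overlapped. The fitted value was then 0.23 and 0.15, and 0.12 with limma-voom on the recovered reads. mRNA level is not protein level, and HIF1A protein was not measured here.

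Both hydroxylases that mark the alpha subunit for degradation are themselves HIF targets. EGLN1 (ENSG00000135766), the main one in most cells, had 17.1, 8.50 and 10.5 FPKM in G3C2 and 20.6, 10.8 and 10.2 FPKM in WT, with a log2 fold change of −0.18 ± 0.14 (SE, limma adjusted p = 0.621). EGLN3 (ENSG00000129521, chr14:33924231-34462774, minus strand), a strongly hypoxia-inducible one, was scarce, with 4.61, 0.666 and 0.476 FPKM in G3C2 and 6.26, 1.18 and 0.925 FPKM in WT. Pair differences were −0.37, −0.39 and −0.38 on the log2(FPKM + 1) scale, on which the added 1 compresses values this low, and the FPKM ratios were 0.736, 0.564 and 0.514. The groups did not overlap within a table under any of the scalings. The fitted value was −0.38 ± 0.14 (SE, limma adjusted p = 0.32), −0.67 with a pseudocount of 0.1 and −1.09 with limma-voom. Behind the second table's values stood 130 and 79 reads in G3C2 and 258 and 173 reads in WT.

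Glucose enters most cells through the transporters GLUT1, encoded by SLC2A1, and GLUT3, encoded by SLC2A3. SLC2A1 (ENSG00000117394, chr1:42925375-42959176, minus strand) had 137, 55.5 and 45.6 FPKM in G3C2, against 58.2, 29 and 32.4 FPKM in WT. The G3C2 libraries were all above the WT libraries of their table, with FPKM ratios of 2.34, 1.92 and 1.41 in pairs 1, b and c. SLC2A1 had the largest log2 fold change of the members, 0.87 ± 0.19 (SE), with a 95% interval of 0.42 to 1.32 and an adjusted limma p of 0.165. Without replicate c, which leaves 1 residual degree of freedom, its value was 1.07 and its adjusted limma p 0.00591, while 2.99% of all genes were then called higher and 3.05% lower. In pair c the difference was 0.48 as deposited, 0.13 with read-total scaling and −0.06 with quantile normalization, and the fitted value was 0.53 with limma-voom.

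SLC2A3 had 93.4, 25.4 and 10.2 FPKM in G3C2 and 51.1, 19.2 and 23.1 FPKM in WT. It lay higher in G3C2 in pairs 1 and b (0.86 and 0.39) and lower in pair c (−1.11), and its fitted value was 0.05 ± 0.40 (SE, limma adjusted p = 0.968). Without replicate c the value was 0.62, with an adjusted limma p of 0.0418, in a fit that called 2.99% of all genes higher. SLC2A1 made up 59.4%, 68.6% and 81.8% of the summed FPKM of both transporters in G3C2, against 53.2%, 60.2% and 58.4% in WT. SLC2A3 has a close paralog, SLC2A14, at no more than 1.25 FPKM in any library, and how reads shared by the 2 were assigned is not given in the sources used here.

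**Figure D2:**
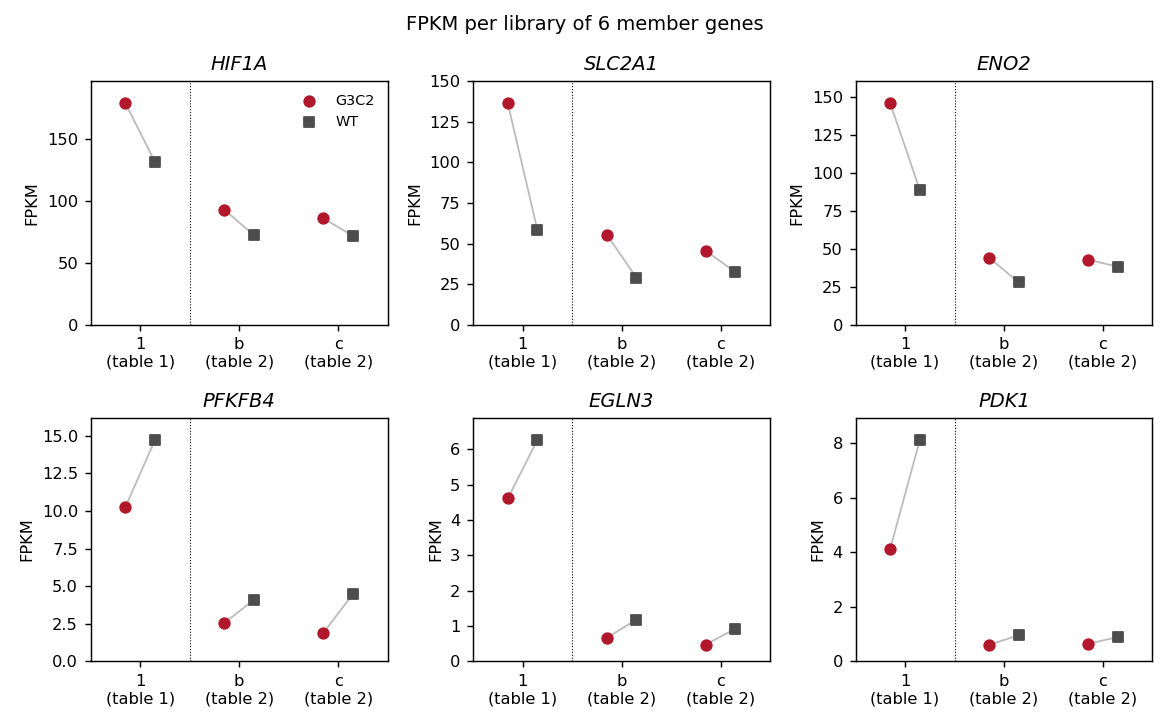
FPKM per library of HIF1A, SLC2A1, ENO2, PFKFB4, EGLN3 and PDK1, with G3C2 as red circles left of WT as grey squares and a dotted line between the 2 tables, whose scales differ. In each pair as deposited the G3C2 point is above WT for the upper row of genes and below it for the lower row; in pair c HIF1A, SLC2A1, ENO2 and PDK1 change sign with quantile normalization, and HIF1A and ENO2 also with read-total scaling.

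The 15 glycolytic enzymes act on the path from glucose to lactate. GAPDH acts on it too but is not a member, and is listed with the further genes of glucose use. By mean over the 6 libraries the most abundant of the 15 was ENO1, enolase, with 1854, 324 and 525 FPKM in G3C2 and 2051, 360.4 and 278 FPKM in WT. PKM, pyruvate kinase, had 1764, 309.9 and 389.5 FPKM in G3C2 and 1733, 282 and 238 FPKM in WT, and its groups did not overlap within a table as deposited. LDHA, lactate dehydrogenase A, had 1564, 162 and 296 FPKM in G3C2 and 1700.5, 183 and 139 FPKM in WT. For ENO1 and LDHA, G3C2 lay slightly below WT in pairs 1 and b and well above it in pair c, where the log2 differences were 0.92 and 1.09. Fitted values were 0.21 ± 0.30 for ENO1, 0.29 ± 0.24 for PKM and 0.26 ± 0.31 for LDHA (SE), with adjusted limma p of 0.784, 0.621 and 0.736.

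The same profile held for the members that act between aldolase and enolase, TPI1, PGK1 and PGAM1. In pair c as deposited, PGAM1, phosphoglycerate mutase, differed by 1.19, PGK1, phosphoglycerate kinase, by 1.05, and TPI1, triosephosphate isomerase, by 0.97, while in pairs 1 and b these 3 genes lay between −0.24 and 0.03. Upstream, PFKP and GPI differed by 0.77 and 0.67 in pair c and between −0.23 and 0.04 in the others. The 2 other phosphofructokinase genes differed little in any pair, PFKM by −0.02, 0.11 and 0.14 and PFKL by −0.21, −0.16 and −0.10, with PFKL below WT without overlap in either table. HK1, the main hexokinase here, differed by −0.18, 0.03 and 0.20. TPI1 has named processed copies, with a summed 3.52, 22.8 and 26.2 FPKM in G3C2 and 2.78, 18.2 and 12.7 FPKM in WT, and how reads shared with them were assigned is not given in the sources used here.

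ENO2 (ENSG00000111674, chr12:6913745-6923698, plus strand), the enolase best known from neurons and also induced in many tumours, had a different profile from ENO1. It had 146, 44.0 and 42.7 FPKM in G3C2, against 88.5, 27.8 and 38.2 FPKM in WT, with no overlap within either table as deposited. Pair differences were 0.71, 0.64 and 0.16, and the fitted value was 0.50 ± 0.18 (SE, limma adjusted p = 0.319), with a 95% interval of 0.06 to 0.95. Without replicate c it was 0.68, with an adjusted limma p of 0.0149 and 1 residual degree of freedom, while 2.99% of all genes were called higher. Pair c alone gave −0.20 with read-total scaling and −0.38 with quantile normalization, so that the groups then overlapped. The fitted value was 0.22 with limma-voom. ENO2 as a share of ENO1 and ENO2 together was 7.28%, 12% and 7.53% in G3C2 and 4.14%, 7.17% and 12.1% in WT, so G3C2 was higher in pairs 1 and b and lower in pair c.

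Some enzymes were chosen for description after their values were seen. HK2, the hypoxia-inducible hexokinase, had 8.20, 7.10 and 12.8 FPKM in G3C2 and 18.9, 5.05 and 7.69 FPKM in WT, so it was lower in G3C2 in the first table and higher in the second. ALDOC, an aldolase of brain, had 0.771, 0.618 and 0.954 FPKM in G3C2 and 1.23, 0.622 and 5.28 FPKM in WT, where replicate c alone was high (393 reads, against 54 in WT replicate b). ALDOA, the aldolase of most tissues, had 425, 2.12 and 2.46 FPKM in G3C2 and 435, 2.44 and 1.46 FPKM in WT. It was among the abundant glycolytic enzymes in the first table and near the bottom of them in the second. In GENCODE 29, 1657 of its 3916 exon bases are shared with a same-strand gene, AC093512.2, which has values in the second table alone. Its second-table values rest on 220 and 217 reads in G3C2 and 284 and 145 in WT, and are not read here as the level of aldolase A.

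**Figure D3:**
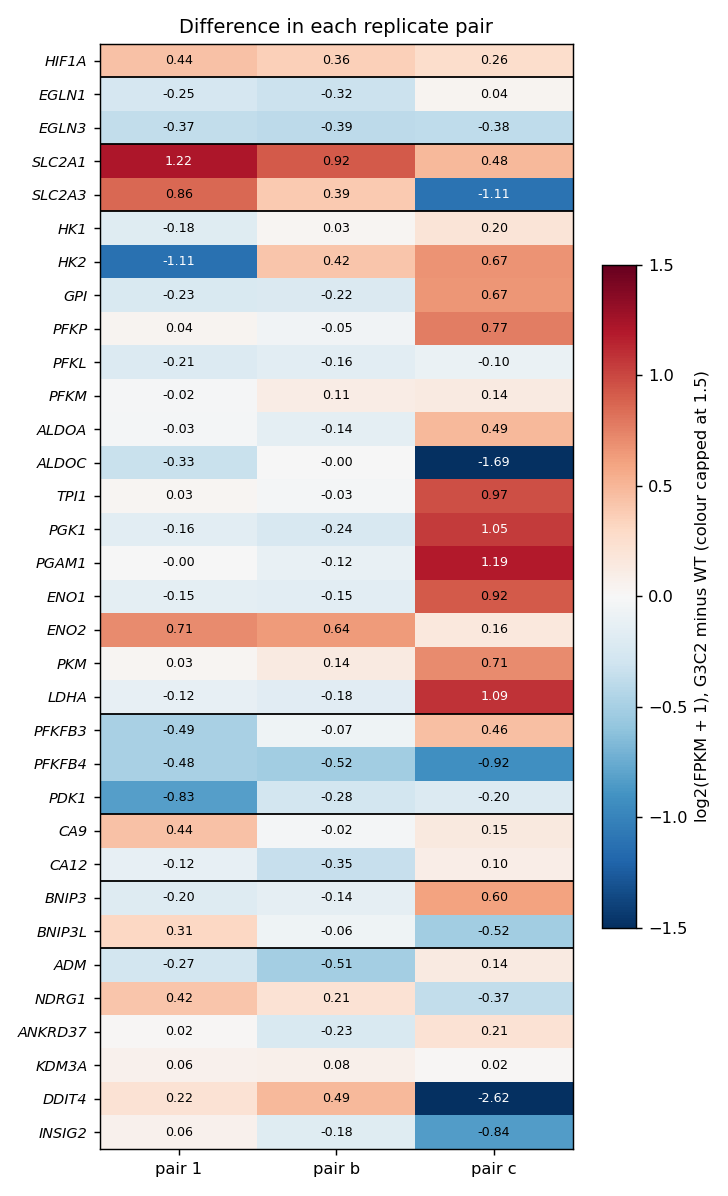
Difference of log2(FPKM + 1), G3C2 minus WT, of the 33 members in each replicate pair, in blocks by role, with red for higher and blue for lower in G3C2 and colours capped at 1.5. Most glycolytic enzymes are pale in pairs 1 and b and red in pair c, where their median is 0.67 as deposited, 0.34 with read-total scaling and 0.11 with quantile normalization.

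PFKFB3 and PFKFB4 make and break fructose 2,6-bisphosphate, the main activator of phosphofructokinase, and PDK1 is a kinase that holds pyruvate dehydrogenase inactive and so keeps pyruvate out of the mitochondrial cycle. PFKFB4 (ENSG00000114268, chr3:48517684-48562015, minus strand) had 10.2, 2.55 and 1.89 FPKM in G3C2, against 14.7, 4.10 and 4.48 FPKM in WT. All G3C2 libraries were below the WT libraries of their table, by −0.48, −0.52 and −0.92 in the pairs, and also with quantile normalization and read-total scaling. The fitted value was −0.64 ± 0.15 (SE), with a 95% interval of −1.01 to −0.28 (limma adjusted p = 0.185), and −1.15 with limma-voom. It rests in the second table on 413 and 260 reads in G3C2 and 743 and 695 reads in WT. PFKFB4 is thus a member whose difference kept its direction and lay away from 0 in each pair, without passing the adjusted test.

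PDK1 (ENSG00000152256, chr2:172555373-172608669, plus strand) had 4.13, 0.613 and 0.646 FPKM in G3C2, against 8.13, 0.958 and 0.894 FPKM in WT. G3C2 was lower in each pair as deposited, by −0.83, −0.28 and −0.20, and pair c came to 0.01 with quantile normalization. The fitted value was −0.44 ± 0.17 (SE, limma adjusted p = 0.344), −0.24 in the second table alone and −0.74 with limma-voom. The difference of the first table minus that of the second was −0.59, with a limma interaction adjusted p = 0.948. PDK1 was the 1 member whose unadjusted interaction p was under 0.05, against 2.86% of all genes. Reads in the second table were 242 and 217 in G3C2 and 423 and 338 in WT. PFKFB3, the most abundant of these 3 regulators, had 16.1, 6.72 and 10.8 FPKM in G3C2 and 23.1, 7.09 and 7.62 FPKM in WT, with no common direction over the pairs (−0.03 ± 0.23, SE, limma adjusted p = 0.957).

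Carbonic anhydrases on the cell surface turn carbon dioxide into bicarbonate and acid, and CA9 is one of the genes most tightly tied to HIF. CA9 was below 1 FPKM in every library, with 0.712, 0.519 and 0.319 in G3C2 and 0.266, 0.545 and 0.189 in WT, so it was not tested. Its second-table values stand for 23 and 12 reads in G3C2 and 27 and 8 in WT, and 643 of its 1670 exon bases overlap the opposite-strand gene ARHGEF39. CA12 was more abundant, with 31.7, 6.47 and 6.84 FPKM in G3C2 and 34.6, 8.51 and 6.32 FPKM in WT, and overlapped between groups in the second table (−0.12 ± 0.15, SE, limma adjusted p = 0.746).

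Of the 2 mitophagy genes, BNIP3L was the more abundant, with 119, 36.1 and 25.3 FPKM in G3C2 and 96.2, 37.6 and 36.8 FPKM in WT. BNIP3 differed by −0.20, −0.14 and 0.60 in the pairs. Among the remaining responders, NDRG1, a stress-responsive differentiation gene, had the highest mean over the 6 libraries, with 56.6, 10.4 and 7.93 FPKM in G3C2 and 42.2, 8.84 and 10.6 FPKM in WT. ADM, the peptide hormone adrenomedullin, and ANKRD37 were below 2 FPKM throughout. KDM3A, a histone H3 lysine 9 demethylase, differed least, by 0.06, 0.08 and 0.02, with a 95% interval of −0.25 to 0.36 for the fitted 0.06. These genes had adjusted limma p between 0.715 and 0.999.

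DDIT4 and INSIG2 were chosen for description after their values were seen. DDIT4, an inhibitor of mTORC1 induced by several stresses, had 10.7, 24.1 and 3.62 FPKM in G3C2 and 9.02, 16.9 and 27.5 FPKM in WT. It lay above NDRG1 in 3 of the 4 second-table libraries. G3C2 replicate c was the low library, at 168 reads against 1314 in replicate b of the clone, and the pair differences were 0.22, 0.49 and −2.62, with a fitted −0.64 ± 0.65 (SE, limma adjusted p = 0.693). INSIG2, which retains the sterol-sensing complex in the endoplasmic reticulum, had 15.8, 5.58 and 3.19 FPKM in G3C2 and 15.1, 6.46 and 6.48 FPKM in WT, with a fitted −0.32 ± 0.22 (SE, limma adjusted p = 0.565). INSIG2 lies on chromosome 2, and the 22 other tested protein-coding genes within 5 Mb had median differences of −0.41, −0.36 and −0.57 in pairs 1, b and c relative to all genes, 12 of them lower and 0 higher in G3C2 in all 3 pairs. Around each other member these medians lay within about 0.2 of 0. The part of the neighbourhood in the INSIG2 values was not tested.

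Glycolytic enzymes and other HIF targets were then set side by side. ALDOA is counted among the 15 glycolytic enzymes throughout, although its second-table values are not read here as the level of aldolase A. The median log2 fold change was 0.21 over the 15 glycolytic enzymes and −0.11 over the 16 other targets tested, against 0.01 over all 15001 genes. By pair the glycolytic medians were −0.12, −0.05 and 0.67 in pairs 1, b and c, and those of the other targets −0.05, −0.16 and −0.09. In pair c 13 of 15 glycolytic enzymes and 8 of 16 other targets lay higher in G3C2, against 55% of all genes, and 9 and 1 lay above 0.5, against 26.1% of all genes. With read-total scaling 10 and 3 lay higher and 5 and 0 above 0.5, at medians of 0.34 and −0.32. Of all 15001 genes 5618 then lay higher and 2016 above 0.5, at a median of −0.16. With quantile normalization 9 and 6 lay higher and 1 and 0 above 0.5, at medians of 0.11 and −0.11. The counts over all genes were then 7739 and 2765, at a median of 0.02. The glycolytic median was −0.09 without replicate c and −0.04 with quantile normalization, so its sign rests on pair c and on the scaling.

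Both genotypes differed between libraries b and c. Between libraries b and c the glycolytic median shifted by 0.39 in G3C2, with 13 of 15 enzymes higher in c, and by −0.36 in WT, with 10 of 15 lower in c. Other targets shifted by −0.09 and 0.07. The opposite movement, up in G3C2 and down in WT, was seen in 9 glycolytic enzymes, ALDOA among them, and 4 other targets, against 36% of all genes. With read-total scaling the glycolytic shifts were 0.18 in G3C2 and −0.24 in WT, against −0.09 and 0.03 over all genes. With quantile normalization they were 0.13 and −0.00, against 0.02 and −0.02. Whether the labels of the c libraries are right was not tested; the genes around INSIG2 lay lower at the median in G3C2 in pair c as in the other pairs. As a share of all FPKM, the glycolytic enzymes took 1.18%, 0.624% and 0.742% in G3C2 and 1.24%, 0.634% and 0.543% in WT.

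**Figure D4:**
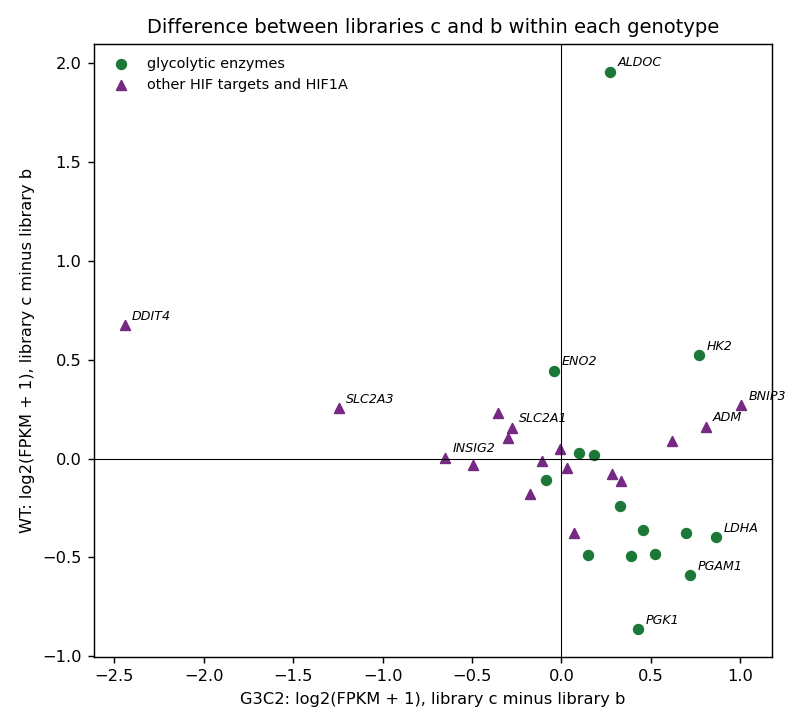
Change of log2(FPKM + 1) between library b and library c, within G3C2 on the horizontal axis and within WT on the vertical axis, for the 32 tested members, glycolytic enzymes as green circles and the other tested members as purple triangles. Of the 15 glycolytic enzymes, 9 lie at the lower right, higher in c in G3C2 and lower in c in WT, as do 36% of all genes tested. With read-total scaling 8 do so, against 23.1% of all genes, and with quantile normalization 6, against 31.4%. DDIT4, SLC2A3 and ALDOC lie far from the rest.

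Other gene groups moved with the glycolytic enzymes in pair c. The 10 growth-state markers, among them MKI67, TOP2A and CCNB1, had pair medians of 0.02, −0.19 and 1.27 as deposited. All 10 then shifted up between b and c in G3C2 (median 0.81) and down in WT (median −0.68). With read-total scaling the pair c median was 0.91, and 8 shifted up in G3C2 (median 0.60) and 10 down in WT (median −0.56). With quantile normalization 8 shifted up in G3C2 (median 0.43) and 10 down in WT (median −0.43). The summed share of these markers in all FPKM was 0.385%, 0.227% and 0.323% in G3C2 and 0.351%, 0.259% and 0.173% in WT. The 83 cytosolic ribosomal protein genes had pair medians of 0.22, −0.04 and 1.09 as deposited.

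Abundance moved with it too. The values by abundance are as deposited. Over the 364 tested genes with a mean of at least 100 FPKM in the second table, the median pair c difference was 0.90 and 87.1% lay higher in G3C2. For the 6 glycolytic enzymes among them (ENO1, TPI1, PKM, PGAM1, LDHA and PGK1) the median was 1.01. In the 4563 genes between 10 and 100 FPKM the median was 0.43, and for the 6 glycolytic enzymes there 0.18. In the 10074 genes below 10 FPKM it was −0.04. The 3 glycolytic enzymes there differed by 0.67 (HK2), 0.49 (ALDOA) and −1.69 (ALDOC). ALDOA falls there only by second-table values that are not read here as the level of aldolase A. In pairs 1 and b the most abundant genes had medians of 0.12 and −0.05. With quantile normalization, which takes out a shift common to genes of one abundance, the glycolytic pair c median was 0.11 and the growth-state median 0.58. The parts of growth state and of abundance in the glycolytic values were not tested.

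Further pathway genes were counted by list, and none passed the adjusted test. Of 13 tested upstream genes, which include ARNT, VHL and its ubiquitin ligase partners, 0 had an unadjusted limma p under 0.05, against 13.6% of all genes, and the smallest were those of ELOC (0.60 ± 0.29), RBX1 (0.52) and ARNT2 (−0.43). Of 27 further genes of glucose use, 1 was higher and 2 lower at that level, against 6.19% and 7.43% of all genes. MPC1, a subunit of the mitochondrial pyruvate carrier, had 15, 6.56 and 7.11 FPKM in G3C2 and 30.6, 11.4 and 9.37 FPKM in WT (−0.68 ± 0.16, SE, limma adjusted p = 0.188). ENO3, the muscle enolase, had 33, 8.95 and 14.6 FPKM in G3C2 and 23.1, 4.72 and 4.91 FPKM in WT (0.90 ± 0.23, SE, limma adjusted p = 0.202). The third, PFKFB2, had a value of −0.58 ± 0.22 (SE, limma adjusted p = 0.332).

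Of 28 other reported hypoxia targets tested, 3 were higher and 1 lower at an unadjusted limma p under 0.05, in all again near the 13.6% of all genes. PLOD2, a collagen lysyl hydroxylase, had 174, 38.8 and 48.5 FPKM in G3C2 and 101, 21.3 and 24.4 FPKM in WT (0.86 ± 0.17, SE, limma adjusted p = 0.149). HMOX1, haem oxygenase 1, had 26.7, 19.5 and 13.0 FPKM in G3C2 and 39.4, 32.7 and 33.1 FPKM in WT (−0.85 ± 0.20, SE, limma adjusted p = 0.188). PPP1R3C, which targets a phosphatase to glycogen, had 7.64, 9.05 and 4.78 FPKM in G3C2 and 2.39, 3.63 and 3.77 FPKM in WT (0.91 ± 0.26, SE, limma adjusted p = 0.22). The medians over the 3 lists were 0.08, 0.05 and 0.04, against 0.01 over all genes, and reported targets lay on both sides of 0.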

How the data were processed

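The authors deposited gene values in FPKM, per the file headers, in 2 tables: replicate 1 of each group in the first, b and c in the second. Per the submitters' processing notes, CASAVA, HISAT2 and the build GRCh38.p12 were used, with no versions. How reads were counted, and whether by strand, is not given in the sources used here, so genes overlapping on opposite strands may share reads. The first table lists 60448 identifiers and the second 59108; 56868 of those common to both matched GENCODE 29. Sample columns left unused numbered 0.

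Sample titles gave the groups and replicate labels. They do not tie libraries to the 3 occasions of the series text, so the spread that the p-values measure may be partly technical. Members and lists were chosen with earlier results of these data known. Differences are G3C2 minus WT on log2(FPKM + 1), tested by limma 3.58.1 (R 4.3.3) with a mean-variance trend and a table term, on genes with 1 FPKM or more in 2 or more libraries and a value in both tables; p was adjusted (Benjamini-Hochberg) over all 15001 and called at 0.05. The fit was tested on simulated data. Full values are given for HIF1A, ZFP36L1, members with an unadjusted p under 0.05 or with at least 0.5 in the same direction in each pair, and the most abundant member of each role. From each further list without a call, the 3 genes of smallest p are named. Any gene outside this rule was picked with its values in view. A further marker gene is not reported here.

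Dividing out GENCODE 29 exon lengths gave whole reads, within 0.02 of a read, for 97.3% to 97.4% of the second table's values, but for 34.0% and 35.6% of the first's. Deviations from group means correlated between libraries of one label (r = 0.93, 0.80 and 0.60 for 1, b and c), which separate tables alone can produce, and r for b inside the second table was −0.17. A replicate block was fitted as an alternative, as 1 of 22 other settings, 3 of them chosen after the data were seen. Motif searches, counts and figures used Python 3.11.15, pandas 2.3.3 and matplotlib 3.10.9.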

Additional observations from a re-analysis of the deposited data

Results flagged for a closer look

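Differences between the 2 tables were looked for gene by gene, as the genotype difference of the first table minus that of the second on the log2(FPKM + 1) scale. PDK1 differed by −0.59 (limma interaction adjusted p = 0.948), with the G3C2 deficit larger in the first table. It was the single member of 32 with an unadjusted interaction p under 0.05, against 2.86% of all genes, and no gene passed the adjusted test (0 of 15001 in limma, 429 at an unadjusted p under 0.05).

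Members whose sign in the first table was opposite to that in both pairs of the second were HK2, HK1, PFKM, BNIP3L and INSIG2. HK2 differed by −1.66, lower in G3C2 in the first table and higher in the second. HK1 differed by −0.30 and PFKM by −0.15, each a small difference in both tables. BNIP3L differed by 0.60 and INSIG2 by 0.57, both higher in G3C2 in the first table and lower in the second. For these 5 genes the limma interaction had an adjusted p of 0.948 or 0.949.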

How the results depend on the processing

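The first table holds 1 library of each group, at a depth that was not recovered, and low genes such as EGLN3 and CA9 rest on few reads. Call counts moved with most settings. Against 3 genes higher and 4 lower, no filter gave 0 and 0 (2990 at an unadjusted limma p under 0.05), the second table alone 0 and 0 (1110), that table with the replicate block 0 and 0 (853), limma-voom on its recovered reads 0 and 0 (1212), the replicate block over all libraries 0 and 1 (1782), a mean FPKM of at least 5 gave 1 lower (1192), and equal medians gave 5 higher. The second table scaled to its read totals gave 1 higher and 3 lower (2237). Leaving out single libraries or pairs gave 0 to 448 higher and 0 to 457 lower. Members called higher numbered 0 in all settings except without replicate c, where SLC2A1, ENO2 and SLC2A3 passed (range 0 to 3). In that fit 2.99% of all genes were called higher and 3.05% lower. Members called lower numbered 0 throughout (0 to 0). With the replicate block no member passed. Each label holds 1 library of each group, so this block cannot change a fitted difference. The glycolytic median of 0.21 was therefore the same by construction. Crossing the labels of b and c in the block, which like limma-voom and read-total scaling was chosen after the data were seen, gave 3 higher and 5 lower (2574 at an unadjusted p under 0.05).

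The glycolytic median (0.21) lay between −0.09 and 0.38 over the leave-outs and at −0.04 with quantile normalization; that of other targets (−0.11) lay between −0.16 and −0.08, and at −0.42 with limma-voom, which moves the median of all genes by −0.11, and at −0.22 with read-total scaling, where the glycolytic median was 0.081. HIF1A, SLC2A1, ENO2, PFKFB4, EGLN3 and PDK1 kept their fitted direction in every setting fitted for them. This leaves out the crossed block and, for EGLN3 and PDK1, the mean FPKM of at least 5. These settings are not independent checks. The replicate block, the filters and the fit without a trend cannot change a fitted difference. The second table alone is the same fit as leaving out replicate 1, and leaving out either replicate 1 library gives the same value. Over the leave-outs SLC2A1 lay between 0.70 and 1.07, ENO2 between 0.40 and 0.68 and PFKFB4 between −0.72 and −0.50.

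Signs turned round only for members whose adjusted limma p was above 0.5, and for ZFP36L1. Equal medians gave HK2 0.022 and ANKRD37 0.030, and a pseudocount of 0.1 gave HK2 0.0054. Quantile normalization gave SLC2A3 −0.034, PGK1 −0.044, LDHA −0.088, ENO1 −0.078, HK1 −0.15, GPI −0.065, PFKM −0.038, PKM −0.072, TPI1 −0.041 and ANKRD37 0.094. The second table alone, with or without the block, gave SLC2A3 −0.36, HK2 0.54, NDRG1 −0.079 and PFKFB3 0.19. Limma-voom gave SLC2A3 −0.58, HK1 −0.074, HK2 0.44, PFKM −0.056, NDRG1 −0.28, KDM3A −0.13, PFKFB3 0.027 and ZFP36L1 −0.071. Read-total scaling gave SLC2A3 −0.071, HK1 −0.11, GPI −0.047, PFKM −0.040, BNIP3 −0.024, NDRG1 −0.026 and KDM3A −0.051. The leave-outs spanned −0.45 to 0.010 for ADM, −0.088 to 0.23 for ALDOA, −0.11 to 0.12 for ANKRD37, −0.24 to 0.34 for BNIP3, −0.29 to 0.12 for BNIP3L, −1.21 to 0.36 for DDIT4, −0.15 to 0.39 for ENO1, −0.22 to 0.22 for GPI, −0.074 to 0.11 for HK1, −0.39 to 0.54 for HK2, −0.15 to 0.48 for LDHA, −0.079 to 0.31 for NDRG1, −0.28 to 0.19 for PFKFB3, −0.0054 to 0.40 for PFKP, −0.060 to 0.59 for PGAM1, −0.20 to 0.45 for PGK1, −0.36 to 0.62 for SLC2A3, −0.0014 to 0.50 for TPI1 and −0.050 to 0.70 for ZFP36L1. In all, 83 single-gene values turned round, 4 newly passed the threshold and 568 did neither. The 568 include values from settings that cannot change a fitted difference. The causes were not tested.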
